A study of Mus musculus with 2 samples.

Results

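Costimulatory receptors are the surface proteins through which a T cell receives signals beside the one from its antigen receptor. Transcripts of 6 such receptors (Icos, Cd28, Cd2, Tnfrsf4, Tnfrsf18 and Tnfrsf9) and of the interleukin-1 receptor Il1r2 were followed in single CD4 T cells. The 7 genes were chosen by name, and all 7 were found among the 12432 genes of the deposited table. The cells were CD4 T cells that bind the 2W1S model peptide, sorted from the spleen and the peripheral lymph nodes of mice (C57BL/6) that had been colonized with Candida albicans engineered to make that peptide (the CA-2W1S colonization label). There were 2 samples of this 1 group, a March capture with 82 cells and an April capture with 96 cells, 178 in all, and no uncolonized or other control cells were analysed here. The cell names placed the March cells in the runs Mar1 (25 cells) and Mar17 (57 cells) and the April cells in Apr13 and Apr21 (48 cells each). Capture (1 sample) and run (1 prefix of the cell names) are names used here. The sample titles give only the month, and what the prefixes stand for is not stated. How many separate C1 captures each sample holds is therefore not known. Neither the number of mice behind each pool nor their age was given in the sources used here.

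CD28 binds CD80 and CD86 on antigen-presenting cells and is carried by resting CD4 T cells, where it gives the classical second signal of activation. ICOS, its relative, appears after activation, binds ICOS ligand and is needed by follicular helper T cells. CD2 is an adhesion and signalling receptor that binds CD48 in the mouse. Tnfrsf4 (OX40), Tnfrsf18 (GITR) and Tnfrsf9 (CD137) belong to the TNF receptor superfamily: they signal through TRAF adaptors to NF-kB, are induced by activation, and are also carried by regulatory T cells. Il1r2 differs from the rest in that its product binds interleukin-1 without passing on a signal, as a decoy.

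The members lie on 3 chromosomes in build mm10 with the GENCODE vM21 annotation. Il1r2 (ENSMUSG00000026073) spans chr1:40074079-40125231 on the plus strand. Cd28 (ENSMUSG00000026012) spans chr1:60716800-60773359 and Icos (ENSMUSG00000026009) chr1:60977927-61000320, both on the plus strand and 204567 bases apart. Cd2 (ENSMUSG00000027863) spans chr3:101275899-101287939 on the minus strand. Tnfrsf4 (ENSMUSG00000029075) spans chr4:156013843-156016612 and Tnfrsf18 (ENSMUSG00000041954) chr4:156026164-156028895, neighbours on the plus strand with 9551 bases between them. Tnfrsf9 (ENSMUSG00000028965) spans chr4:150914562-150946102 on the plus strand. The span of Camta1 overlaps that of Tnfrsf9 on the minus strand. Because the counting was not stated to use strand, reads from any exon bases shared by Tnfrsf9 and Camta1 cannot be told apart. Whether both genes share exon bases was not checked. Both genes were high in 1 March cell and in 0 April cells, and their rank correlation was -0.027 in March and 0.047 in April. Tnfrsf18 and Il1r2 overlap antisense genes too (Gm16008 and Gm16894), and Icos and Il1r2 overlap further annotated transcripts on their own strand (Gm37039 and Gm37347). None of these 4 was analysed here, and their overlap with exons of the members was not checked. Reads from any shared exon bases cannot be told apart from those of the members either.

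Promoter windows of 300 bases around a transcript start given by RefSeq in GRCm38.p6 were at hand for 4 of the 7 members. These starts are not always the first base of the gene spans above. The Tnfrsf18 window holds that base, the Tnfrsf4 window ends 98 bases before it, and the Il1r2 window and both Tnfrsf9 windows begin 11764, 5343 and 13187 bases inside the gene. They are shown because Tnfrsf4 and Tnfrsf18 are neighbours whose transcripts did not follow each other from cell to cell, and because Tnfrsf9 and Il1r2 were high in few cells. Capitals mark CACGTG (a palindromic E box), TGANTCA (an AP-1-like motif) and a kappaB-like motif (GGG and CC with 5 bases between them). The GC box GGGCGG was searched too and is not capitalised. Each motif was searched on both strands.
Il1r2, chr1:40085843-40086142, + strand: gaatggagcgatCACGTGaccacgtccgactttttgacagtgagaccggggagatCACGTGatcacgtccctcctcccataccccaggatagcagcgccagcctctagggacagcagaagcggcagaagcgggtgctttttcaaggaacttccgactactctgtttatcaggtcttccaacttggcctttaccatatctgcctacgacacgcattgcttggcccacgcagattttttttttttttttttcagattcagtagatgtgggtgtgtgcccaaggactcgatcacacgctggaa
Tnfrsf4, chr4:156013445-156013744, + strand: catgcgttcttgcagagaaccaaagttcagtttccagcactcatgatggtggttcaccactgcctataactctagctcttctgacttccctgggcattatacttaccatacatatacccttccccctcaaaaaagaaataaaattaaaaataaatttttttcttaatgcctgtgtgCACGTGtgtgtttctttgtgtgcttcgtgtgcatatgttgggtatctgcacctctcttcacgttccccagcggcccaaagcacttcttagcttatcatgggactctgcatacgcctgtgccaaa
Tnfrsf18, chr4:156026072-156026371, + strand: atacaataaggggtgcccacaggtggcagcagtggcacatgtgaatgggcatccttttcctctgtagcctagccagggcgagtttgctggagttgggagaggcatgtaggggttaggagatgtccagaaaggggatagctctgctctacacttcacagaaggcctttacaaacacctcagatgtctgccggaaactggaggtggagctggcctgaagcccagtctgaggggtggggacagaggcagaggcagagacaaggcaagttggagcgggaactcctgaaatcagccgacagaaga
Tnfrsf9 upstream start, chr4:150919905-150920204, + strand: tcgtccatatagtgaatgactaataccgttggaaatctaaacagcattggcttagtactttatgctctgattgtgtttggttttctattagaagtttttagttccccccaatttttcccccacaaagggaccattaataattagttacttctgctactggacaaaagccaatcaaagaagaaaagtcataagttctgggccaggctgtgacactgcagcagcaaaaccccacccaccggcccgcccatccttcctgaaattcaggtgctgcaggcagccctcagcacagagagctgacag
Tnfrsf9 downstream start, chr4:150927749-150928048, + strand: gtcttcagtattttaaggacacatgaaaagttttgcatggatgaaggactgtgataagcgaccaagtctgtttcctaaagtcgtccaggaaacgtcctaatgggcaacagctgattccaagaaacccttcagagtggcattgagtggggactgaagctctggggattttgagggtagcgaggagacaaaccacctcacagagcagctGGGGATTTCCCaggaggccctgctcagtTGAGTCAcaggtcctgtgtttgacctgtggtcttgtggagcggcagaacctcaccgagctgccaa
CACGTG stood at positions 13 and 56 of the Il1r2 window and at 177 of the Tnfrsf4 window, counted from 1 at the 5′ end, and 7.15% of 32851 windows of the same length hold it. The downstream Tnfrsf9 window held TGANTCA at position 236, a motif found in 7.81% of the windows. It also held the kappaB-like motif at 208 and 209, in a pair of overlapping matches, and 50.8% of all windows hold that motif. The upstream Tnfrsf9 window held the GC box at position 241, as 35.7% of windows do, and none of the other motifs. The Tnfrsf18 window held none of the 4. A match or its absence describes the letters of a window and no more.

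The deposited values are logarithms to base 2, and were read as log2 of a TPM-like value plus 1. The linear value below is the back-transformed number. Whether the values were divided by transcript length is not given in the sources used here, so orders between genes are orders of these values. Transcripts of the T cell receptor complex and of the kinase Lck were found at high values in most cells and Cd4 in fewer. Trbc2 stood at a log2 value of at least 4 in 98.9% of cells, Lck in 93.3% and Trac in 89.3%. Cd3g, Cd3d and Cd3e did so in 88.8%, 86.5% and 85.4%. Cd4 reached it in 46.6% of cells (39.0% of March and 53.1% of April cells). Of CD8 T cell genes, Cd8a reached that level in 2.25% and Cd8b1 in 7.87%. Of the B cell list, Pax5 and Ebf1 reached it in 1.69% each and Cd74, which other antigen-presenting cells also carry, in 9.55%. The myeloid genes Csf1r and Itgam reached it in 2.25% and 0.562%, the natural killer genes Klrb1c and Klrk1 in 2.81% and 1.12%, and the regulatory T cell factor Foxp3 in 2.81%. The part of such cells in the results was not tested. Between 2927 and 6990 genes were above 0 per cell, and 3 cells, all from Mar1, had over 50% of their signal in mitochondrial genes. Read depth is unknown and the chemistry adds no molecular identifiers.

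Values of the members were mostly either low or high, and bimodality was not tested. Most cells stood in a low mode, at 0 or at log2 values up to about 3, or at values above 4. Few lay between log2 3 and 5 (17 cells for Icos, 13 for Cd28, 17 for Cd2, 4 for Tnfrsf4, 12 for Tnfrsf18, 3 for Tnfrsf9 and 1 for Il1r2). In Mar1, though, 7 of 25 cells lay there for Icos. The 9 Tnfrsf9-high cells were spread from 4.30 to 11.41, with no clear high mode. Low values were not read as expression, since the B cell gene Ebf1 was above 0 in 177 of the 178 cells and reached log2 4 in 3, and the myeloid gene Itgam was above 0 in 137 cells and reached log2 4 in 1. A cell is therefore called high for a gene at a log2 value of at least 4, which is a linear value of at least 15. This level was chosen after the values were seen. Intervals of shares are exact Clopper-Pearson intervals at 95% and reflect counting error alone.

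**Figure D1:**
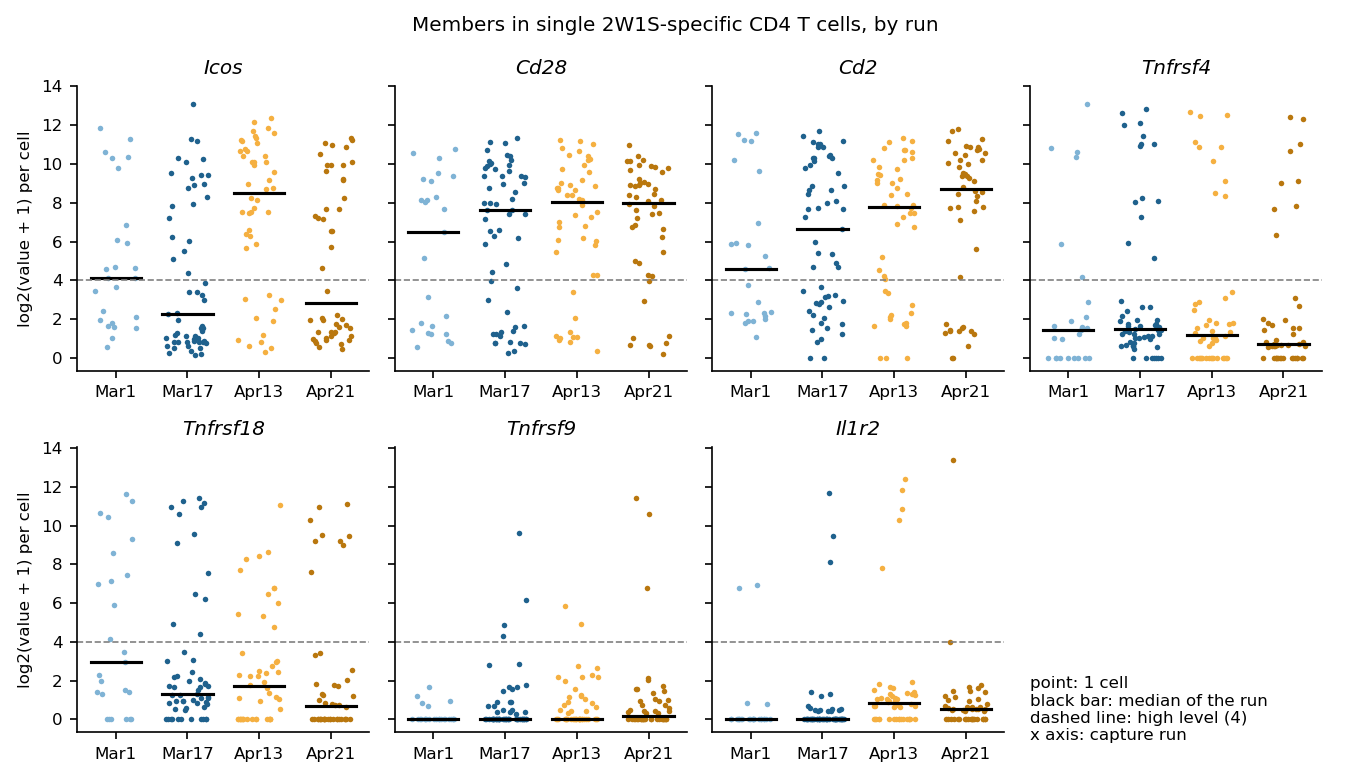
Log2(value + 1) of each member (y axis) in every cell, split by capture run (x axis); each point is 1 cell, the black bar the median of the run and the dashed line the high level of 4. Icos, Cd28 and Cd2 have both high and low cells in every run, with 7 of 25 Mar1 cells between log2 3 and 5 for Icos. Most cells lie near 0 for Tnfrsf9 and Il1r2.

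Cd28 was high in 73.0% of cells (95% interval 65.9% to 79.4%), Cd2 in 66.3% (58.8% to 73.2%) and Icos in 53.4% (45.8% to 60.9%). The median gene of the table was high in 6.74% of cells, and these 3 genes stood above 97.9%, 97.3% and 96.0% of all genes in that share. Tnfrsf18 was high in 25.3% (19.1% to 32.3%) and Tnfrsf4 in 21.9% (16.1% to 28.7%), above 85.8% and 82.5% of genes. Il1r2 was high in 11 cells (6.18%, 3.12% to 10.8%) and Tnfrsf9 in 9 cells (5.06%, 2.34% to 9.38%), close to the median gene. Within every run the lowest share among Cd28, Cd2 and Icos was above the highest of Tnfrsf4 and Tnfrsf18, and the lowest of those was above the highest of Il1r2 and Tnfrsf9. Inside each of these tiers the order changed between runs, and the intervals of neighbours over all cells overlapped. Il1r2 averaged 6.17% ± 0.108 and Tnfrsf9 5.04% ± 0.234 over the captures (SD, n = 2), apart by more than the SD of captures but not by more than the range of the runs, 2.08% to 10.4% for Il1r2 and 0% to 7.02% for Tnfrsf9.

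Cd28 had log2 values from 0.20 to 11.36 with a median of 7.76, and no cell at 0. Over all cells it was the most widely high member, though in Mar1 Icos had the same share. The share of high cells averaged 72.4% ± 11.01 over the captures (SD, n = 2), with 64.6% in March and 80.2% in April. By run it was 56.0% in Mar1, 68.4% in Mar17, 79.2% in Apr13 and 81.3% in Apr21, so both April runs stood above both March runs. Cd28 also followed the number of genes detected in a cell more closely than the other members did within each capture, with a Spearman rho of 0.34 over 82 March cells and 0.23 over 96 April cells. The part of genes detected in the difference between captures was not tested. The median number of genes detected was 5344 in March and 4934 in April. The median number of genes at the high level was 1507 in March and 1574.5 in April.

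Cd2 had log2 values from 0 to 11.78 with a median of 7.70, and was at 0 in 7 cells. Its share of high cells averaged 65.7% ± 10.2 (SD, n = 2), with 52.0% in Mar1, 61.4% in Mar17, 70.8% in Apr13 and 75% in Apr21. Here too both April runs were above both March runs. Cd48, which encodes the mouse ligand of CD2 and is carried by lymphocytes themselves, was high in 45.5% of cells.

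Icos had log2 values from 0.16 to 13.08 with a median of 4.68, close to the high level of 4, and no cell at 0. It varied most between runs: the median was 4.14 in Mar1, 2.25 in Mar17, 8.49 in Apr13 and 2.83 in Apr21. The share of high cells was 56.0%, 38.6%, 75% and 47.9% in the same order. The April capture as a whole stood at 61.5% (51.0% to 71.2%) and the March capture at 43.9% (33.0% to 55.3%). The runs overlapped, since Mar1 was above Apr21, so the captures did not differ beyond the spread of their runs.

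Tnfrsf4 was at 0 in 48 cells and below log2 4 in 91 more. In the 39 high cells its median log2 value was 10.65, a linear value of 1610, and the 10% of cells with the most held 86.8% of its summed linear signal. Its share of high cells was the steadiest of the 5 more widely high members, at 24.0% in Mar1, 24.6% in Mar17, 20.8% in Apr13 and 18.8% in Apr21, or 22.1% ± 3.25 over captures (SD, n = 2). OX40 transcripts were thus abundant in a minority of cells of every run and at 0 or low in the rest.

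Tnfrsf18 was at 0 in 57 cells and high in 45, with a median log2 value of 8.62 in the high cells. Mar1 stood apart with 44.0% of cells high (24.4% to 65.1%), against 22.8% in Mar17, 25% in Apr13 and 18.8% in Apr21. The intervals of the 4 runs overlapped. Over captures the share was 25.6% ± 5.23 (SD, n = 2).

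Tnfrsf9 was at 0 in 105 cells. Its 9 high cells were 4 of Mar17, 2 of Apr13 and 3 of Apr21, with log2 values from 4.30 to 11.41. Mar1 had 0 of 25 cells, which allows a share of up to 12.0% by the rule of 3 counts of the total (the exact 95% upper limit is 13.7%). Il1r2 was at 0 in 98 cells. Its 11 high cells were 2 of Mar1, 3 of Mar17, 5 of Apr13 and 1 of Apr21, with log2 values from 6.75 to 13.36 and a median of 10.30. The 10% of cells with the most held 99.8% of the summed Il1r2 signal, and 1 further cell lay between log2 3 and 4, just under the high level.

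**Figure D2:**
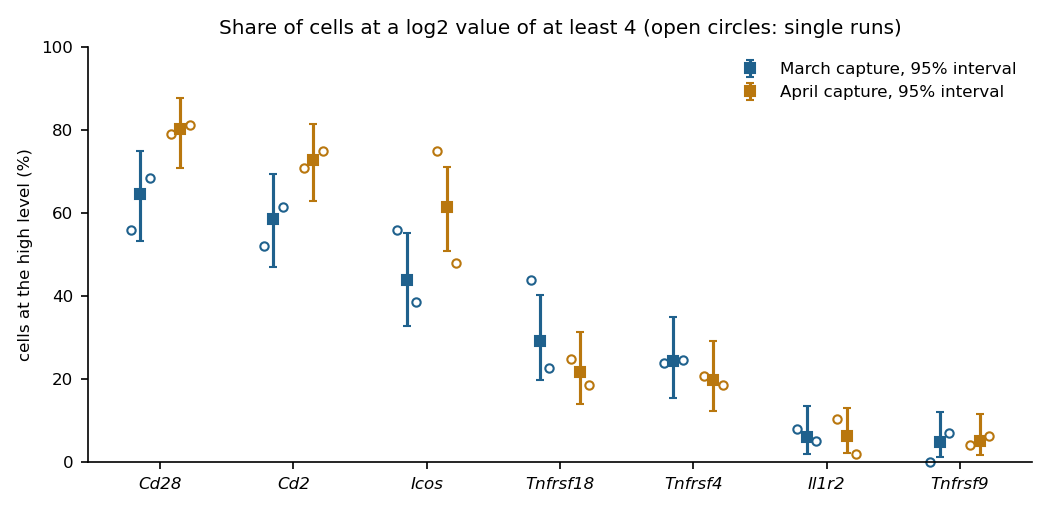
Share of cells at a log2 value of at least 4 (y axis, percent) for each member (x axis); squares are the captures with exact 95% intervals and open circles their runs. Cd28, Cd2 and Icos lie between 38.6% and 81.3% in the runs, Tnfrsf18 and Tnfrsf4 between 18.8% and 44.0%, and Il1r2 and Tnfrsf9 at 10.4% or less.

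A cell was high for a median of 2 members and for at most 6 (mean 2.51). No member was high in 8 cells, and 5 or more were high in 9. At least 1 of Cd28, Cd2 and Icos was high in 92.7% of cells, and all 3 were high in 26.4%. At least 1 of the 3 TNF receptors was high in 42.7% of cells, 48.8% of March and 37.5% of April cells, and 2 or more of them in 16 cells. The number of high members was related to the number of genes detected with a rho of 0.20 over 82 March cells and 0.26 over 96 April cells. By run, rho was 0.59 in Mar1, 0.16 in Mar17, 0.17 in Apr13 and 0.35 in Apr21.

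By rank, levels of the members were weakly related from cell to cell. Over the 21 pairs, Spearman rho averaged over the captures lay between -0.13 (Cd2 and Tnfrsf4) and 0.27 (Icos and Tnfrsf4), with a median of 0.06. The sign was the same in both captures for 14 pairs and in all 4 runs for 4. Icos and Tnfrsf4 had rho of 0.37 in March and 0.18 in April, and of 0.20, 0.43, 0.32 and -0.013 in Mar1, Mar17, Apr13 and Apr21. Of the other pairs, none had a mean rho above 0.2 in size. Icos and Tnfrsf18 reached 0.32 in April and stood at -0.030 in March. Pearson r, which uses the log2 values in place of their ranks, gave another order. Averaged over the captures, it was 0.31 for Tnfrsf4 and Il1r2 and 0.30 for Tnfrsf9 and Il1r2, against rho of 0.09 and 0.15. For Icos and Tnfrsf4 the mean Pearson r was 0.27. These are descriptions over cells that share a capture, a library chemistry and differing numbers of genes detected. With the number of genes detected held constant, the rho of Icos and Tnfrsf4 was 0.27 as well.

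Members that lie near each other, Tnfrsf4 with Tnfrsf18 and Cd28 with Icos, did not stand out. Ctla4, which is not a member and lies between Cd28 and Icos, had a mean rho of 0.29 with Icos. Tnfrsf4 and Tnfrsf18 had a mean rho of 0.02 (0.07 in March and -0.03 in April). Tnfrsf18 was high in 12 of the 39 Tnfrsf4-high cells (30.8%, 17.0% to 47.6%), against 33 of the 139 other cells (23.7%, 16.9% to 31.7%), so the intervals overlapped. Cd28 and Icos had a mean rho of 0.06 (0.16 in March and -0.04 in April), and Cd28 was high in 73.7% of Icos-high cells against 72.3% of the other cells.

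**Figure D3:**
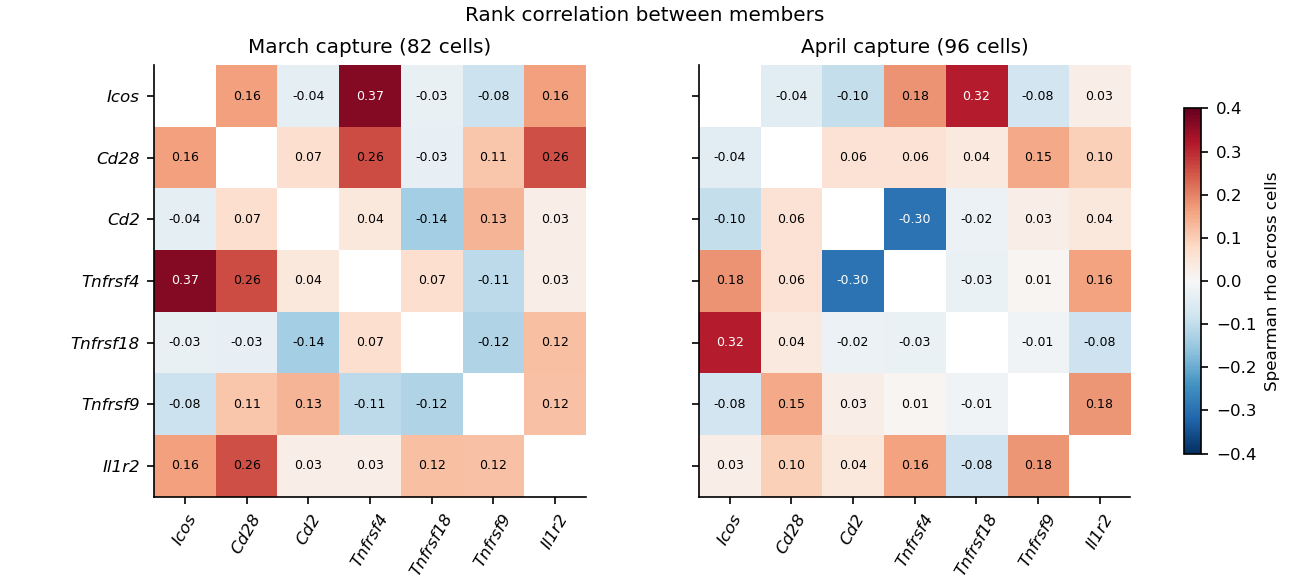
Spearman rho across cells between each pair of members (rows and columns) in the March capture (82 cells, left) and the April capture (96 cells, right); the colour scale runs from -0.4 to 0.4. Icos with Tnfrsf4 is positive in both captures, at 0.37 in March and 0.18 in April, while several pairs, such as Icos with Tnfrsf18, are seen in 1 capture.

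For each member that was high in at least 10 cells of each capture, the high cells were compared with the other cells on the mean log2 value per capture, with the capture as a block (limma, Benjamini-Hochberg adjustment over 10794 genes). With 2 captures the test has 1 residual degree of freedom per gene and leans on the variance shared across genes. Its p-values reflect how far the difference between classes varies from 1 capture to the other, which may be of technical origin. Differences below are between means of log2(value + 1) in which cells at 0 count, so they are no folds. They compare parts of the same mixed pools, so a gene that is high in more cells and a gene that is higher within cells give the same difference.

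Icos-high cells (36 of March and 59 of April) had more Maf and Ctla4 than the other cells (46 of March and 37 of April). Of 10794 genes, 20 were called (0.185%), all of them higher in the Icos-high cells. Maf is a transcription factor that follicular helper and interleukin-10-producing CD4 T cells use, and Ctla4, which lies between Cd28 and Icos on chromosome 1, encodes the inhibitory receptor that competes with CD28 for its ligands. Maf had log2 values from 0.35 to 11.33 with a median of 7.88 in Icos-high cells, against 0.40 to 10.01 with a median of 3.05 in the other cells. The difference of means was 2.60 ± 0.52 (SE; 2.53 in March and 2.66 in April; adjusted p = 0.00288 in limma with Benjamini-Hochberg adjustment). Maf was high in 78.9% of Icos-high cells (69.4% to 86.6%), against 44.6% of the other cells (33.7% to 55.9%).

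Ctla4 had log2 values from 0 to 11.63 with a median of 2.97 in Icos-high cells, against 0 to 12.15 with a median of 0.97 in the other cells. The ranges of both genes overlapped widely between the classes. The difference of means for Ctla4 was 2.36 ± 0.46 (SE; 2.91 in March and 1.80 in April; adjusted p = 0.00288, limma with Benjamini-Hochberg adjustment). Ctla4 was high in 46.3% of Icos-high cells (36.02% to 56.8%), against 16.9% of the other cells (9.54% to 26.7%). Mean Maf and mean Ctla4 were higher in the Icos-high cells within each of the 4 runs, by 0.51, 3.10, 2.05 and 2.73 for Maf and by 1.01, 3.81, 1.53 and 1.69 for Ctla4 in Mar1, Mar17, Apr13 and Apr21. In Mar1 the median of Ctla4 went the other way, with 1.40 in Icos-high cells against 1.53 in the other cells. The share of Maf-high cells in Mar1 did so too, with 57.1% of 14 Icos-high cells against 63.6% of 11 other cells.

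The number of calls and both of these calls depended on the processing. Without the Mar1 cells 4 genes were called, and without the 3 cells of high mitochondrial signal 2 were, Maf and Ctla4 among them each time. With runs as the libraries and the run as the block, the differences were 2.10 ± 0.53 for Maf and 2.01 ± 0.51 for Ctla4, and 0 genes were called in limma (785 at an unadjusted p under 0.05; adjusted p = 0.59 for each, Benjamini-Hochberg). Classes cut at a linear Icos value of 1 put 64 March and 83 April cells among the positives and called 0 of 10794 genes (0%) in limma, with 907 at an unadjusted p under 0.05.

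**Figure D4:**
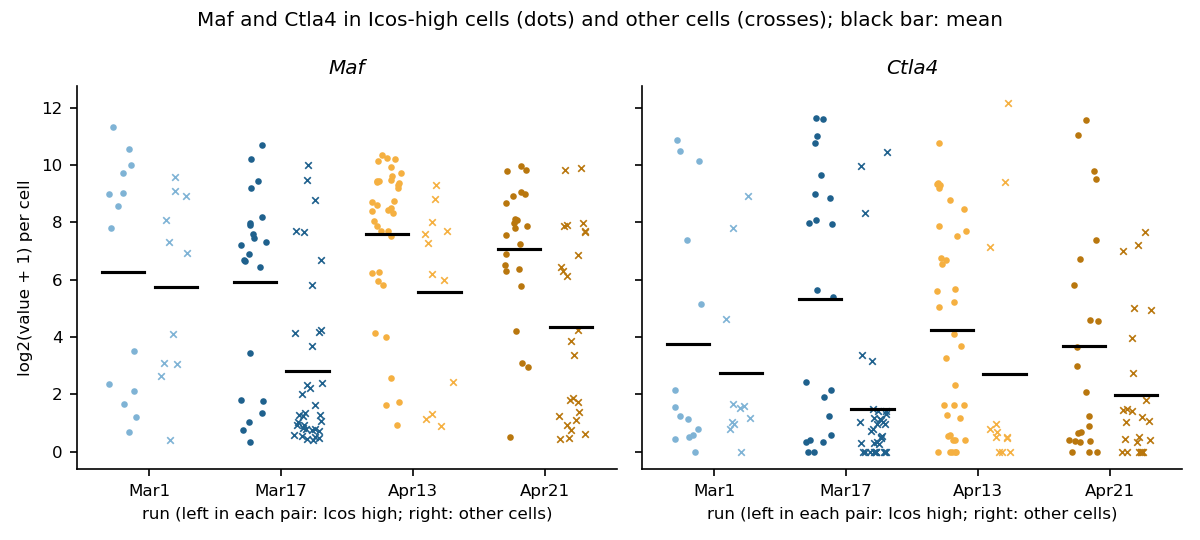
Log2(value + 1) of Maf (left panel) and Ctla4 (right panel) per cell (y axis) in the 4 runs (x axis); in each pair the left column of dots holds Icos-high cells, the right column of crosses the other cells, and black bars are means. The mean is higher in Icos-high cells in each run, least in Mar1, where the difference is 0.51 for Maf and 1.01 for Ctla4.

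The other 3 genes of the 5 with the smallest p were Emc2, a subunit of the complex that inserts proteins into the endoplasmic reticulum membrane (1.69 ± 0.38 SE), Casp8ap2, a caspase-8-associated protein (1.46 ± 0.33 SE), and Mien1 (1.70 ± 0.39 SE), each with an adjusted p of 0.0249 to 0.0271 in limma with Benjamini-Hochberg adjustment. No gene was called lower. The lower genes with the smallest p were Cd55, which protects cells from complement (-0.77 ± 0.23 SE), and S1pr1, the receptor for lymphoid organ exit (-1.39 ± 0.42 SE; -1.16 in March and -1.62 in April), with adjusted p of 0.119 and 0.122 (limma, Benjamini-Hochberg).

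Among lists of related genes, the 2 called members in the Icos-high cells were Maf, 1 of 10 follicular helper genes, and Ctla4, 1 of 10 regulatory T cell genes. The follicular helper list had 9 of 10 genes with a positive difference and a median of 0.38, and the regulatory list 8 of 10 with a median of 0.36. Over all genes tested, 59.6% were positive and the median was 0.06. Of the follicular helper genes, Sh2d1a, the adaptor SAP, had 1.58 ± 0.50 (SE; adjusted p = 0.152 in limma, Benjamini-Hochberg), while Cxcr5 had 0.61 (1.48 in March and -0.27 in April) and Bcl6 -0.35, neither called. Foxp3, the defining regulatory T cell factor, had -0.16 ± 0.14 (SE) and was high in 1 of 95 Icos-high cells, against 4 of 83 other cells. The list of naive or central memory genes had 2 of 9 positive and a median of -0.71 (-0.53 in March and -0.90 in April), with 0 called. Klf2, the quiescence factor in the title of the series, was among them at -0.98 (-1.44 in March and -0.52 in April), and its mean rho with Icos was -0.030. Of 9 activation genes 7 were positive, with a median of 0.60 and 0 called; Cd69, the early activation antigen, had 1.53 ± 0.50 (SE), with 2.65 in March and 0.41 in April.

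Genes of the TRAF and NF-kB pathway, downstream of the TNF receptors, gave 0 calls in limma in the high-level comparisons of Icos, Cd28, Cd2, Tnfrsf4 and Tnfrsf18. Of its 21 genes, 10 were positive in the Tnfrsf4-high cells (median -0.02), 15 in the Tnfrsf18-high cells (median 0.12) and 13 in the Icos-high cells (median 0.05). Over all 10794 genes, 53.3%, 51.3% and 59.6% were positive in the same order. Of 9 ligand genes, Cd48 and Cd86 were in the table, and Cd86 was high in 11 cells (6.18%). The others were not analysed here. Among other costimulatory receptors, Cd27 was high in 51.7% of cells and Cd40lg, the ligand through which helper T cells signal to B cells, in 47.8%. Tnfrsf14 was high in 5.06% and Tnfrsf1b in 3.93%.

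No other member was called in the Icos-high cells. Tnfrsf4 had a mean of 3.61 in Icos-high cells against 2.21 in the other cells, a difference of 1.40 ± 0.45 (SE; 95% interval 0.52 to 2.27; adjusted p = 0.156, limma with Benjamini-Hochberg adjustment). Tnfrsf4 was high in 26 of 95 Icos-high cells (27.4%, 18.7% to 37.5%), against 13 of 83 other cells (15.7%, 8.61% to 25.3%). By run the difference was -0.46 in Mar1, 2.80 in Mar17, 2.16 in Apr13 and 0.19 in Apr21, so Mar1 did not share the direction. Il1r2 had a difference of 0.93 ± 0.31 (SE; adjusted p = 0.169, limma with Benjamini-Hochberg adjustment). Tnfrsf18 (0.20), Tnfrsf9 (0.11), Cd28 (0.11) and Cd2 (-0.27) had standard errors above their differences, and each of these 4 had opposite signs in March and April.

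The split by Tnfrsf4 looks at the same cells from the other side and is not independent of the split by Icos. Tnfrsf4-high cells (20 of March and 19 of April) had Icos values from 0.63 to 12.17 with a median of 8.72, against 0.16 to 13.08 with a median of 3.87 in the other 139 cells. The difference of means was 2.30 ± 0.63 (SE; 3.45 in March and 1.15 in April), and the gene was not called (adjusted p = 0.203, limma with Benjamini-Hochberg adjustment). By run it was 2.18 in Mar1, 4.01 in Mar17, 3.01 in Apr13 and -1.03 in Apr21. Il1r2 had 1.64 ± 0.46 (SE), with 0.85 in March and 2.43 in April, and was not called (adjusted p = 0.207, limma with Benjamini-Hochberg adjustment). Its difference was positive in each run. In Mar1 and in Apr21 only 1 of the Tnfrsf4-high cells was Il1r2-high, and rho of the genes was -0.038 and -0.020.

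In the Tnfrsf4-high comparison 2 of 10794 genes were called (0.0185%), both higher. The planned classes, cut at a linear Tnfrsf4 value of 1, put 56 March and 47 April cells among the positives. They called 0 of 10794 genes (0%) in limma, with 590 at an unadjusted p under 0.05. Snrpe, a core protein of the spliceosome, had a median of 9.67 in Tnfrsf4-high cells against 2.56 in the other cells, and a difference of 3.10 ± 0.63 (SE; 4.37 in March and 1.84 in April; adjusted p = 0.00949, limma with Benjamini-Hochberg adjustment). Gsdme, which encodes the pore-forming protein gasdermin E, was high in 13 of 39 Tnfrsf4-high cells, against 12 of 139 other cells, with a difference of 2.36 ± 0.50 (SE; 2.88 in March and 1.84 in April; adjusted p = 0.0125, limma with Benjamini-Hochberg adjustment). Without the 3 cells of high mitochondrial signal, and likewise without the Mar1 cells, 0 genes were called (lowest adjusted p 0.858 and 0.875; 605 and 602 genes at an unadjusted p under 0.05), although the differences were 3.04 and 3.78 for Snrpe. By run the Snrpe difference was -0.45 in Apr21 and positive in the other 3, and the Gsdme difference was positive in all 4. In Apr21, however, Gsdme was high in 1 of 9 Tnfrsf4-high cells, against 5 of 39 other cells.

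The other comparisons called 0 of 10794 genes (0%) in limma. At an unadjusted p under 0.05 there were 851 genes for Cd28-high cells, 728 for Cd2-high cells and 620 for Tnfrsf18-high cells. In Cd28-high cells Cd2 had a difference of 1.44 ± 0.60 (SE; 95% interval 0.23 to 2.66; adjusted p = 0.549, limma with Benjamini-Hochberg adjustment). In Tnfrsf18-high cells Icos had 1.002 ± 0.583 (SE; -0.06 in March and 2.06 in April), a difference that March did not share. Too few cells were high for Tnfrsf9 and Il1r2, so the class was cut at a linear value of 1 for Tnfrsf9 and at any value above 0 for Il1r2. These called 0 of 10794 genes (0%) each in limma, with 566 and 555 at an unadjusted p under 0.05, and they mix high cells with cells of the low mode.

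The 11 Il1r2-high cells were more often high for Icos, Tnfrsf4, Maf and Cxcr5 than the other cells. With so few cells no test was made, and the following are counts. Icos was high in 10 of the 11 cells (90.9%, 58.7% to 99.8%), against 85 of 167 other cells (50.9%, 43.1% to 58.7%). Tnfrsf4 was high in 7 (63.6%, 30.8% to 89.1%), against 32 of 167 (19.2%, 13.5% to 26.0%). Tnfrsf9 was high in 3 (27.3%, 6.02% to 61.0%), against 6 of 167 (3.59%, 1.33% to 7.66%), and Tnfrsf18 in 5, against 40. Cd28 and Cd2 were each high in 8 (72.7%), against 73.1% and 65.9% of the other cells. For Cd28 the captures went opposite ways, with 5 of 5 cells against 48 of 77 in March and 3 of 6 against 74 of 90 in April. The Il1r2-high cells were high for 3.73 of the 6 other members on average (4 in March and 3.5 in April), against 2.37 in the other cells (2.14 in March and 2.56 in April).

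Maf was high in all 11 Il1r2-high cells, with log2 values from 4.21 to 10.34 and a median of 9.19, against 101 of 167 other cells (60.5%) with values from 0.35 to 11.33 and a median of 6.38. Cxcr5, the chemokine receptor that leads T cells into B cell follicles, was high in 8 of the 11 (72.7%, 39.0% to 94.0%), against 30 of 167 other cells (18.0%, 12.5% to 24.6%). It was 4 of 5 cells in March against 14 of 77, and 4 of 6 in April against 16 of 90. Bcl6 was high in 5 of the 11 (45.5%, 16.7% to 76.6%), against 9 of 167 other cells (5.39%, 2.49% to 9.98%). For Bcl6 the counts were 2 of 5 in March against 2 of 77, and 3 of 6 in April against 7 of 90. Pdcd1, the inhibitory receptor PD-1 of follicular helper and exhausted T cells, was high in 3 of the 11, all from March, against 13 of 167, and Ctla4 in 4 of the 11, against 54 of 167. With both captures pooled, all 10 listed follicular helper genes had a larger share of high cells in the 11 than in the others. In April the share was smaller for Pdcd1 (0 of 6 against 10 of 90), Slamf6 (1 of 6 against 36 of 90) and Sh2d1a. How many of all genes had a larger share was not counted. Sh2d1a was high in 6 of the 11, against 68 of 167, but in April in 2 of 6, against 43 of 90. Across cells, Sh2d1a and Il1r2 had a rho of -0.11 (March) and -0.08 (April). Izumo1r, which encodes folate receptor 4, had -0.06 (March) and 0.07 (April) with Il1r2. Of 10 regulatory T cell genes, 6 had a larger share in the 11, but March and April differed. Ctla4 was high in 3 of 5 against 20 of 77 in March, and in 1 of 6 against 34 of 90 in April. The larger shares of Il2ra, Itgae, Tnfrsf1b and Ccr8 rested on 1 March cell each, with 0 of 6 in April. For this list too, the share among all genes was not counted. Foxp3 was high in 0 of the 11, which allows a share of up to 27.3% by the rule of 3 counts (exact 95% upper limit 28.5%), and above 0 in 2. Ikzf2, which encodes the transcription factor Helios of many regulatory T cells, was high in 3 of the 11, all from March, against 26 of 167 (15.6%). The Il1r2-high cells had 4305 to 6780 genes detected with a median of 5161, against a median of 5048 in the other cells. They came from all 4 runs. No doublet caller was run, and 2 cells caught in 1 capture site were not looked for.

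**Figure D5:**
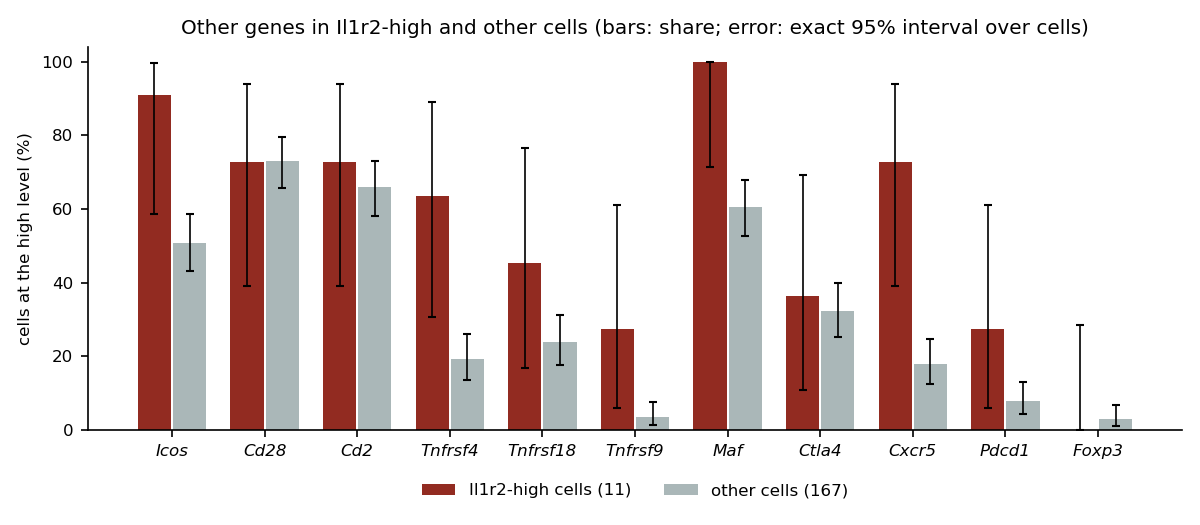
Share of cells at a log2 value of at least 4 (y axis, percent) for other genes (x axis) in the 11 Il1r2-high cells (dark red, left) and the 167 other cells (grey, right); error bars are exact 95% intervals over cells. Icos, Tnfrsf4 and Cxcr5 stand at 90.9%, 63.6% and 72.7% against 50.9%, 19.2% and 18.0%, whereas Cd28 stands at 72.7% against 73.1%.

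Of the 9 Tnfrsf9-high cells 3 were also Il1r2-high, so both sets share cells. In the 6 that were not, Tnfrsf4 was high in 2 (33.3%, 4.33% to 77.7%), against 30 of the 161 cells high for neither (18.6%, 12.9% to 25.5%). Icos was high in 2 of the 6, against 83 of 161, Maf in 2, against 99, and Cxcr5 in 0, against 30. The intervals of all 4 genes overlapped between these sets. The 3 cells high for both Tnfrsf9 and Il1r2 came from Mar17, Apr13 and Apr21.

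Across 6813 genes above 0 in at least 25% of cells of both captures, Maf had the highest mean rho with Icos, 0.39 (0.42 in March and 0.37 in April, and between 0.29 and 0.42 in the 4 runs). The 99th percentile of all genes was 0.21. Hprt, a purine salvage enzyme, followed with 0.32, and Cox7a2, a subunit of respiratory complex IV, with 0.32. Ctla4 had 0.29. For the other members the highest values were lower than that of Maf with Icos. They were 0.31 for Cd28 (Sec24c, then Prickle3 and Zfp207), 0.30 for Cd2 (Idnk, then Fam81a and Gm10025) and 0.31 for Tnfrsf4 (Sf1, then Tk2 and Psmd14). They were 0.29 for Tnfrsf18 (Pnrc2, then Mrpl27 and Stat5a, a transducer of interleukin-2 signals). For Tnfrsf9 the highest was 0.30 (Prmt5, then Tuba1b and Usp37), and for Il1r2 it was 0.28 (Angptl2, then Kif2a and Fam193b). Il1r2 itself did not pass the filter, as it was above 0 in 24.4% of March cells. With 9 Tnfrsf9-high and 11 Il1r2-high cells, the ranks of these members rest mostly on cells at 0 or in the low mode.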

How the data were processed

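The deposited log2 values of 12432 genes in 178 cells came from the authors without a header on units; back-transformed sums of 892206 to 979888 per cell led to their reading as log2(TPM-like value + 1). Per the submitters' processing notes the build was mm10; aligner and counter were not given in the sources used here. SMART-Seq v4 on a Fluidigm C1 was used, per the labels' protocols. Ensembl IDs matched 12163 symbols. The 7 members, the gene lists and the tests were chosen with earlier results of these data known. The captures are replicates 1 and 2 of 1 group. Classes planned by linear values of 1 (Icos, Tnfrsf4, Tnfrsf18, Tnfrsf9), by values above the median (Cd28, Cd2) or by any value above 0 (Il1r2) were joined by the high level (log2 of 4), added after the values were seen. Mean log2 values per capture and class were tested, two-sided, with limma 3.58.1 in R 4.3.3 (capture block, genes above 0 in at least 10% of cells, Benjamini-Hochberg threshold 0.05). In simulated data with 200 of 10795 genes shifted in random classes of the Tnfrsf4-high sizes, 0%, 1% and 95% of genes shifted by 1, 2 and 3 were recovered. Named were the members, list genes and the 3 genes with the highest mean rho per member. Up to 5 called genes per direction were named too, or else the 2 with the smallest p. Foxp3, Ikzf2, Cxcr5, Bcl6, Pdcd1, Sh2d1a, Izumo1r, Maf and Ctla4 in the small classes were chosen after their values were seen. Rank correlations were computed with SciPy 1.17.1 in Python 3.11.15. A result on 1 list of signalling genes is not reported here.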

Additional observations from a re-analysis of the deposited data

How the results depend on the processing

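For the Icos-high cells, 20 genes were called in the fit given above, against 12 with no filter on low genes, 4 with values regressed on the number of genes detected, 4 without the Mar1 cells, 2 without the cells of high mitochondrial signal, 1 with quantile normalization, and 0 each with a pseudocount of 10, with runs as libraries and the run as block, and with no capture block. For the Tnfrsf4-high cells, 2 were called, against 1 with quantile normalization and 0 with a pseudocount of 10, the run block, no block, without the high mitochondrial cells or without the Mar1 cells. Single calls appeared where 0 were called above: 1 for Cd28-high cells with no filter, with quantile normalization and without the high mitochondrial cells, 1 for Cd28 split at its median and 1 for Tnfrsf9 with quantile normalization, and 1 for Tnfrsf18 split at its median. The cause of these changes was not tested. Ctla4 was called in 5 of 8 alternatives and Maf in 4 of 8, with adjusted p from 0.00414 and 0.00486 up to 0.857 in limma (Benjamini-Hochberg). Both differences were positive in 10 of 10 alternatives, from 1.52 to 2.91 for Ctla4 and from 1.86 to 2.88 for Maf. Snrpe was called in 3 of 8 and Gsdme in 2 of 8. The small differences of other members in Icos-high cells changed sign: Cd28 was at -0.0086 with the run block, -0.078 after regression on genes detected and between -0.90 and 1.13 with 1 capture left out, and Cd2 was between -0.97 and 0.42 with 1 capture left out. Leaving out a capture leaves no residual degrees of freedom, so those are values with no test. Read depth is unknown, so the low mode cannot be separated into expression and background, and shares rest on 178 cells from 2 pools of an unstated number of mice.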
